A study of Mus musculus with 27 samples.

Results

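Pan-endothelial genes are genes that blood vessel endothelium uses in nearly every organ, whatever the type of vessel. The 10 genes described here are Pecam1, Cdh5, Emcn, Cd34, Mcam, Esam, Erg, Egfl7, Robo4 and Rhoj, named in a list made with earlier results of these mice known, out of 40129 genes in the table. All 10 were present in every mouse and all passed the filter on low values (a mean over the mice of 1 normalized read or more). Their levels were followed through the oxygen-induced retinopathy (OIR) model of retinal neovascularization (RNV) in wild-type (WT) C57BL/6 pups (C57BL/6J in the study's methods). OIR pups breathed 75% oxygen from postnatal day (p) 7 to p12, were then returned to room air and were killed at p14 or p17. Control pups (nOIR) stayed in room air until p14 or p17. One library was made from the whole retina of each mouse, from 1 or 2 retinas, after perfusion with buffer. At p14 6 nOIR and 6 OIR mice were compared, and at p17 6 nOIR and 8 OIR mice. Mouse S4 of the nOIR p14 group was left out, as in the study's methods. At p14 the mice came from 3 nOIR and 4 OIR litters, and at p17 from 2 nOIR and 3 OIR litters, and the litter of each mouse is not given in the labels, so litter effects cannot be told apart from the effects of single mice. All values are normalized reads, which are reads per gene divided by 1 size factor per mouse.

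In the OIR model, high oxygen stops the growth of the young retinal vessels and removes many capillaries, so that the retina becomes hypoxic once the pups are back in room air. Endothelial cells then divide and sprout, first as new intraretinal vessels and later as tufts on the surface of the retina. The pan-endothelial genes encode the parts that make a vessel wall. Adhesion proteins of the junction (Pecam1, Cdh5, Esam, Mcam) hold neighbouring cells together, sialomucins (Emcn, Cd34) coat the luminal side, Egfl7 is secreted into the matrix, Robo4 is a receptor of the roundabout family, Rhoj is a small GTPase of the Cdc42 group that acts on the cytoskeleton, and Erg is a transcription factor of the ETS family that keeps many endothelial genes active. In whole retina, a higher or lower level of such a gene can stem from the number of endothelial cells or from RNA per cell. These cannot be told apart.

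The retina itself was present as labelled, since all 15 markers of photoreceptors, bipolar, ganglion, amacrine and Müller cells had reads in every group. Recovered whole reads ranged from 17029536 to 33593428 per mouse, with a median of 30024568. Lens RNA was uneven, and the summed level of 10 lens genes ranged from 148 normalized reads in a nOIR p14 mouse to 38988.5 in an OIR p17 mouse. Over these 10 the median difference between OIR and nOIR mice was 1.10 (p14) and 1.69 (p17) on the log2 scale, higher in OIR, and of the 4 mice with over 5000 normalized reads of the lens gene Cryaa 3 were OIR p17 and 1 was nOIR p14. By limma, 0 of these lens genes were called between OIR and nOIR mice at either age (1 at an unadjusted p under 0.05 at p17, and 0 by edgeR and DESeq2). Of 10 markers of pigment epithelium and choroidal melanocytes, limma likewise called 0 at either age (1 at an unadjusted p under 0.05 at p14, and 0 by edgeR and DESeq2), and their sums were 1389.7 to 8817 in nOIR p17 and 2284 to 7377 in OIR p17 mice.

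The question of the first comparison was which of these genes already differed at p14. The study describes large ischemic areas and no significant RNV at this age. At p14, OIR mice had more Mcam, Rhoj and Pecam1 than nOIR mice, by 2.46-fold, 2.08-fold and 1.32-fold. The other 7 did not pass the threshold of an adjusted p under 0.05. In the same comparison 3.18% of all 27137 genes tested were higher and 2.91% were lower. The log2 fold change had a median of 0.07 over the 10 genes, beside 0.02 over all genes. The second comparison asked the same at the age of the greatest RNV. At p17 each of the 10 genes was higher in OIR than in nOIR mice, and in each of them every OIR p17 mouse lay above every nOIR p17 mouse. Among all genes, 7.39% were higher, 5.12% were lower, and 3.90% had all OIR p17 mice above all nOIR p17 mice. The median log2 fold change was 1.80 over the 10 genes, from 0.82 for Esam to 2.70 for Mcam, beside -0.02 over all genes. An adjusted p under 0.05 together with a log2 fold change above 2, the study's criteria for genes that were higher, was reached by 4 of the 10 (Mcam, Erg, Rhoj and Cd34) and by 1.90% of all genes. The summed level of the 10 genes was 3625 to 4541 normalized reads in nOIR p14, 4220 to 7006 in OIR p14, 3432 to 3958.5 in nOIR p17 and 10222 to 14675 in OIR p17 mice.

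**Figure D1:**
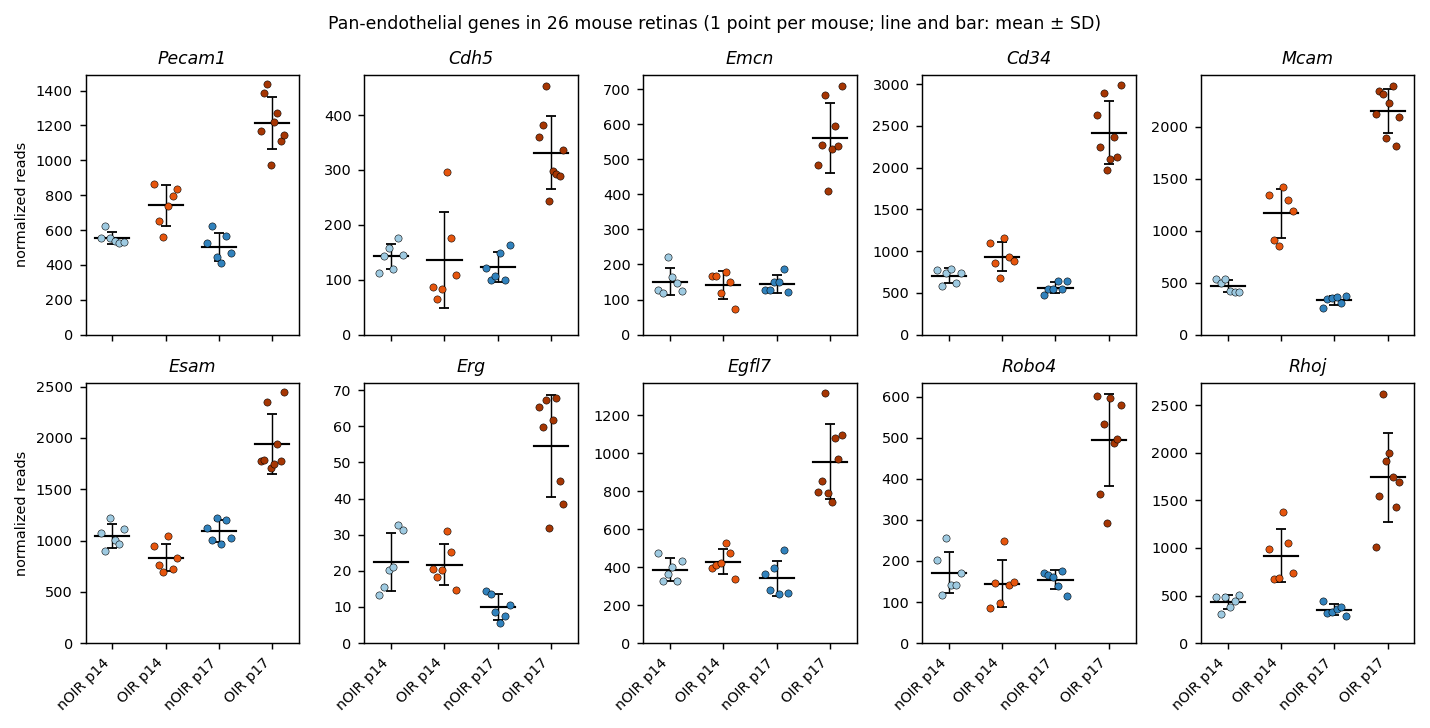
Normalized reads of the 10 pan-endothelial genes, with 1 point per mouse, a line at the group mean and a bar of 1 SD (6, 6, 6 and 8 mice). In all 10 panels the OIR p17 mice lie above the nOIR p17 mice, while at p14 OIR mice lie above all nOIR mice for Mcam and Rhoj.

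Mcam encodes the melanoma cell adhesion molecule, an immunoglobulin-type receptor of endothelium that mural cells also carry. In nOIR p14 mice Mcam had 408 (lowest), 459 (median) and 537 (highest) normalized reads, and in OIR p14 mice 852, 1239 and 1420. In nOIR p17 mice it had 257, 349 and 369, and in OIR p17 mice 1811, 2177 and 2393. No OIR mouse overlapped a control mouse of the same age, and the lowest OIR p17 mouse lay above the highest OIR p14 mouse. The log2 fold change was 1.30 ± 0.12 (SE) at p14 and 2.70 ± 0.12 at p17, with adjusted p of 3.81e-08 and 5.08e-16 (limma). Among all genes called higher, ordered by p, Mcam ranked 16 at p14 and 2 at p17. In untreated mice Mcam was lower at p17 than at p14 in every mouse, with a log2 difference of -0.50 ± 0.12, and this did not pass the adjustment over all genes (adjusted p = 0.0786). That value passed with S4 included (adjusted p = 0.0326), with every mouse rescaled to the same total (0.0264) and by DESeq2 (0.0171), and over all alternatives it ranged from 0.0171 to 0.229.

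Rhoj was the other gene that separated the groups at both ages. It had 307, 462 and 503 normalized reads (lowest, median and highest) in nOIR p14 mice against 672, 866 and 1378 in OIR p14 mice. At p17 the values were 288, 340 and 443 in nOIR against 1013, 1721 and 2617 in OIR mice. The OIR p14 and OIR p17 mice overlapped. Rhoj rose by 1.06 ± 0.18 on the log2 scale at p14 (adjusted p = 0.000346, limma) and by 2.28 ± 0.17 at p17 (5.85e-11). Mcam and Rhoj made 2 of 10 genes with all OIR mice above all controls at p14, a pattern that 1.91% of all genes showed. For both genes an exact permutation test over mice (two-sided) gave p = 0.00216 at p14 and p = 0.000666 at p17, the smallest values that 6 against 6 and 8 against 6 mice can give.

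Pecam1, the platelet and endothelial cell adhesion molecule, had the smallest change that passed at p14. Its normalized reads were 527, 546 and 622 (lowest, median and highest) in nOIR p14 mice and 560, 766 and 866 in OIR p14 mice. The 2 groups overlapped, because OIR p14 mouse S3 had 560 and nOIR p14 mouse S2 had 622. The log2 fold change at p14 was 0.40 ± 0.12 with an adjusted p of 0.0322 (limma). This call was lost when only the p14 groups were fitted (adjusted p = 0.0547), when the 4 mice with the most lens RNA were left out (0.0761), and without any one of nOIR p14 mice S3, S5, S6 or S7 or OIR p14 mice S1, S4, S5 or S6 (0.0540 to 0.0804). At p17 Pecam1 had 409, 496 and 623 normalized reads in nOIR and 973, 1195 and 1441 in OIR mice. These groups did not overlap, and the log2 fold change was 1.27 ± 0.11 (adjusted p = 5.79e-10).

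Cdh5 encodes VE-cadherin, the cadherin of endothelial adherens junctions. It had 113, 144 and 176 normalized reads in nOIR p14 mice and 65.5, 97.6 and 296 in OIR p14 mice. The OIR p14 mice were spread widely for this gene, from 65.5 in S2 to 296 in S4, and their SD was 64.4% of the mean against 16.6% in nOIR p14 mice. The log2 fold change at p14 was -0.25 ± 0.25 (adjusted p = 0.699). It was -0.52 without S4 (adjusted p = 0.180), and over all alternatives it ranged from -0.52 to -0.051 with no adjusted p below 0.180. At p17 Cdh5 had 98.6, 114 and 164 normalized reads in nOIR mice and 244, 317 and 454 in OIR mice. It was higher in OIR mice by 1.43 ± 0.23 on the log2 scale (adjusted p = 4.30e-05, limma), and the groups did not overlap.

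Esam, an adhesion molecule of endothelial tight junctions, moved least at p17 and lay lower at p14. It had 898, 1037 and 1215 normalized reads in nOIR p14 mice and 698, 797 and 1041 in OIR p14 mice. The groups overlapped, and the log2 fold change of -0.33 ± 0.11 did not pass (adjusted p = 0.0725, limma), although its unadjusted p was 0.00519. It passed with S4 included (adjusted p = 0.0341) and without OIR p14 mouse S4 (0.0271), within a range of 0.0271 to 0.172 over all alternatives. At p17 the values were 965, 1075 and 1221 in nOIR mice and 1709, 1781 and 2447 in OIR mice. All OIR p17 mice lay above all controls, and Esam rose by 0.82 ± 0.10 (adjusted p = 6.74e-07).

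The sialomucins Cd34 and Emcn differed little at p14 and strongly at p17. Cd34, which progenitor cells of the blood and some fibroblasts also carry, had 577, 738 and 791 normalized reads in nOIR p14 and 681, 909 and 1152 in OIR p14 mice. These overlapped, with a log2 fold change of 0.39 ± 0.12 and an adjusted p of 0.0597 (limma). The adjusted p was 0.0457 when genes with a mean of at least 10 were tested, 0.0179 with equal totals, 0.0496 with quantile normalization and 0.0266 by DESeq2, and it ranged from 0.0154 to 0.169 over all alternatives. At p17 Cd34 had 469, 546 and 640 normalized reads in nOIR mice and 1971, 2309 and 2991 in OIR mice. The lowest OIR p17 mouse was thus well above the highest control, and the log2 fold change was 2.09 ± 0.12 (adjusted p = 1.32e-13). Emcn (endomucin), which is typical of veins and capillaries, had 119, 137 and 223 normalized reads in nOIR p14 and 72.5, 157 and 178 in OIR p14 mice. It differed by -0.11 ± 0.19 on the log2 scale at p14 (adjusted p = 0.869). At p17 Emcn had 120, 138 and 188 in nOIR mice and 409, 539 and 710 in OIR mice. The groups were far apart, and Emcn rose by 1.95 ± 0.18 (adjusted p = 2.58e-09).

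Egfl7 and Robo4 showed the same order of groups at p17. Egfl7 had 327, 381 and 475 normalized reads in nOIR p14 and 337, 417 and 527 in OIR p14 mice, which overlapped almost completely (log2 fold change 0.14 ± 0.16, adjusted p = 0.740). At p17 it had 259, 322 and 490 in nOIR and 744, 911 and 1317 in OIR mice, a rise of 1.50 ± 0.15 (adjusted p = 9.33e-09, limma). Robo4 had 118, 157 and 255 normalized reads in nOIR p14 and 86.5, 143 and 247 in OIR p14 mice, with a log2 fold change of -0.28 ± 0.22 (adjusted p = 0.588). At p17 the values were 114, 163 and 174 in nOIR mice and 293, 515 and 602 in OIR mice. Both genes thus separated OIR from nOIR mice at p17, and Robo4 rose by 1.65 ± 0.21 (adjusted p = 5.85e-07).

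Erg had the lowest level of the 10 and the second largest change at p17. It had 13.3, 20.6 and 32.6 normalized reads in nOIR p14 and 14.8, 20.3 and 31.0 in OIR p14 mice. These 2 groups lay on top of each other, with a log2 fold change of -0.01 ± 0.29 (adjusted p = 0.994, limma). At p17 Erg had 5.51, 9.63 and 14.4 in nOIR mice and 31.8, 60.9 and 67.7 in OIR mice. The nOIR p17 values rest on 5 to 16 recovered reads per mouse and those of OIR p17 mice on 32 to 82. Erg was higher in every OIR p17 mouse, by 2.35 ± 0.27 (adjusted p = 1.61e-07). In controls the mean of Erg was lower at p17 than at p14 (log2 difference -1.07 ± 0.29). That difference had an unadjusted p of 0.000916 and did not pass over all genes (adjusted p = 0.132), except by DESeq2 (0.0379).

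**Figure D2:**
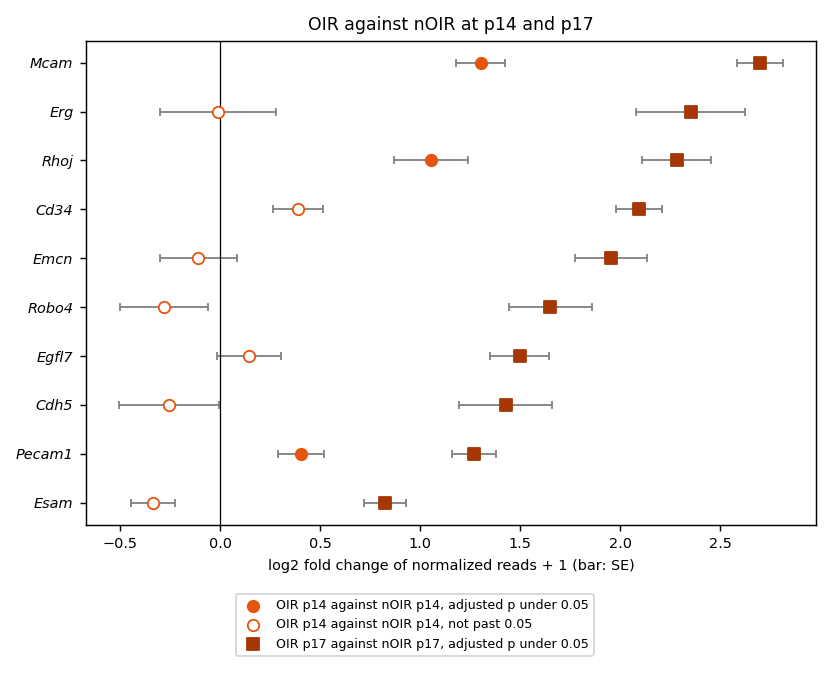
Log2 fold change of OIR against nOIR mice at p14 (circles) and p17 (squares) for each gene, on the log2(normalized reads + 1) scale, with bars of 1 SE. Filled symbols passed an adjusted p of 0.05 over all genes, and values run from -0.33 to 1.30 at p14 and from 0.82 to 2.70 at p17.

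Whether the OIR effect itself changed with age was tested by a contrast between ages within that limma fit. The effect was larger at p17 than at p14 for all 10 genes, beside 1.43% of all genes. The difference was smallest for Pecam1 (0.87 ± 0.16 on the log2 scale, adjusted p = 0.00167) and largest for Erg (2.36 ± 0.40, adjusted p = 0.000670). Emcn (2.06 ± 0.26) and Robo4 (1.93 ± 0.30) followed Erg. Cd34 had the smallest adjusted p, 2.53e-07, with a difference of 1.70 ± 0.17. For Cdh5 the difference was 1.68 ± 0.34 (adjusted p = 0.00502). With log2 Ptprc, a leukocyte gene, as a covariate it was 1.50 with an adjusted p of 0.0656 (limma), and over all alternatives the adjusted p ranged from 6.53e-05 to 0.0656. The median difference was 1.54 over the 10 genes and -0.02 over all genes. This contrast shares all its mice with the comparisons at p14 and p17, so the 3 sets of values are not independent.

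The next comparisons followed each treatment from p14 to p17. In OIR mice all 10 were higher at p17 than at p14, beside 4.11% of all genes, with a median log2 difference of 1.25. The largest difference was that of Emcn (2.01 ± 0.18, adjusted p = 1.04e-08, limma) and the smallest that of Pecam1 (0.72 ± 0.11, adjusted p = 5.41e-05). For 8 genes every OIR p17 mouse lay above every OIR p14 mouse, a pattern shown by 1.41% of all genes, and the exceptions were Cdh5 and Rhoj. For Cdh5 the overlap came from OIR p14 mouse S4, which had 296 normalized reads, above the 244 of OIR p17 mouse S4. For Rhoj, OIR p14 mice S4 (1378) and S5 (1055) lay above OIR p17 mouse S1 (1013). In controls, limma called 0 of the 10 genes in either direction over the same days, beside 0.158% of all genes called lower. At an unadjusted p under 0.05, 3 of them were lower at p17 (Mcam, Cd34 and Erg), beside 3.96% of all genes, and 0 were higher. DESeq2 called 2 lower (Mcam and Erg), beside 0.660% of the 19240 genes to which it gave an adjusted p, and edgeR called 0, beside 0.173%. The median log2 difference in controls was -0.21 over the 10 genes and -0.01 over all genes.

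Ordered by the mean of log2 values, OIR p17 was the highest of the 4 groups for all 10 genes and its step down to the next group passed, beside 2.22% of all genes. Below that, the order differed between genes. For Pecam1, Mcam and Rhoj the next group was OIR p14, whose step down to nOIR p14 passed, and nOIR p17 was lowest. The step between the control ages did not pass over all genes for these 3, although for Mcam the 2 control groups did not overlap. Cd34 and Egfl7 had the same order, but their lower steps did not pass. For Cdh5, Emcn and Robo4, OIR p14 was the lowest group on that scale, and its step to the nearest control group did not pass (adjusted p from 0.759 to 0.963). By mean normalized reads Cdh5 was lowest in nOIR p17 (123) and not in OIR p14 mice (136), among which S4 had 296. OIR p14 was also lowest for Esam, and its log2 difference from nOIR p17 was -0.40 ± 0.11 (adjusted p = 0.0166, limma), whereas its step to nOIR p14 did not pass. For Erg the order below OIR p17 was nOIR p14, OIR p14 and nOIR p17, and OIR p14 lay above nOIR p17 by 1.06 ± 0.29 (adjusted p = 0.0147). OIR p14 was also above nOIR p17 for Mcam (1.80), Rhoj (1.35), Cd34 (0.72) and Pecam1 (0.55), with adjusted p from 4.37e-11 to 0.00139, beside 5.39% of all genes higher in that comparison.

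Levels of different genes were compared per kilobase of exon. In nOIR p14 mice the mean was highest for Esam (364 normalized reads per kilobase), followed by Mcam (140), Egfl7 (108), Cd34 (96.9), Pecam1 (89.1) and Rhoj (66.8). Cdh5 (33.9), Robo4 (32.4) and Emcn (27.9) lay near each other, and Erg was lowest at 6.45. In OIR p17 mice Esam (677) and Mcam (642) had nearly the same level per kilobase. Cd34 (332), Rhoj (269) and Egfl7 (267) came next, and Erg was again lowest at 15.8.

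To ask whether single genes moved more or less than the endothelial cadherin of the same mice, log2 Cdh5 was subtracted from every gene before the fit. At p14, Mcam rose by 1.56 ± 0.27 relative to Cdh5 (adjusted p = 7.07e-05, limma) and Rhoj by 1.31 ± 0.28 (adjusted p = 0.00207), beside 1.77% of all genes. At p17, 4 genes rose relative to Cdh5, beside 1.23% of all genes. These were Mcam (1.27 ± 0.25, adjusted p = 1.44e-05), Rhoj (0.85 ± 0.26, 0.00310), Cd34 (0.67 ± 0.25, 0.0152) and Erg (0.92 ± 0.41, 0.0384). Esam was lower relative to Cdh5 at p17, by -0.60 ± 0.26 (adjusted p = 0.0297). Since Cdh5 itself rose at p17, 77.6% of all genes were lower relative to it, so a lower value is what most genes show and adjusted p-values there lie close to unadjusted ones. Emcn, Robo4, Egfl7 and Pecam1 did not differ from Cdh5 at p17 by the test, with values of 0.53 ± 0.31, 0.22 ± 0.30, 0.07 ± 0.28 and -0.16 ± 0.27. With the replicate number as a block, Cd34 and Erg no longer passed (adjusted p = 0.0556 and 0.0742, beside 1.15% of all genes higher), and Esam no longer passed without nOIR p17 mouse S2, S3 or S5 or OIR p17 mouse S1 or S2 (0.0504 to 0.0797). Erg also did not pass without any one of nOIR p17 mice S3 to S6 or OIR p17 mice S1, S5 or S6 (0.0530 to 0.116). Mcam and Rhoj passed at both ages under all 30 alternatives.

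With Pecam1 as the reference instead, Esam (-0.74, adjusted p = 0.000587, limma) and Robo4 (-0.68, adjusted p = 0.0324) were lower at p14. Such a call was common, since 22.0% of all genes were lower, so it is not particular to these genes. At p17 Emcn was higher (0.69, adjusted p = 0.00372), beside Mcam, Rhoj, Cd34 and Erg, which had also risen relative to Cdh5. The share of all genes higher relative to Pecam1 at p17 is not given here. Values relative to Cdh5 at p14 also depend on OIR p14 mouse S4, the one with the most Cdh5. Without it, 4 genes instead of 2 were higher relative to Cdh5 at p14, while the share of all genes that were higher rose from 1.77% to 8.21%.

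**Figure D3:**
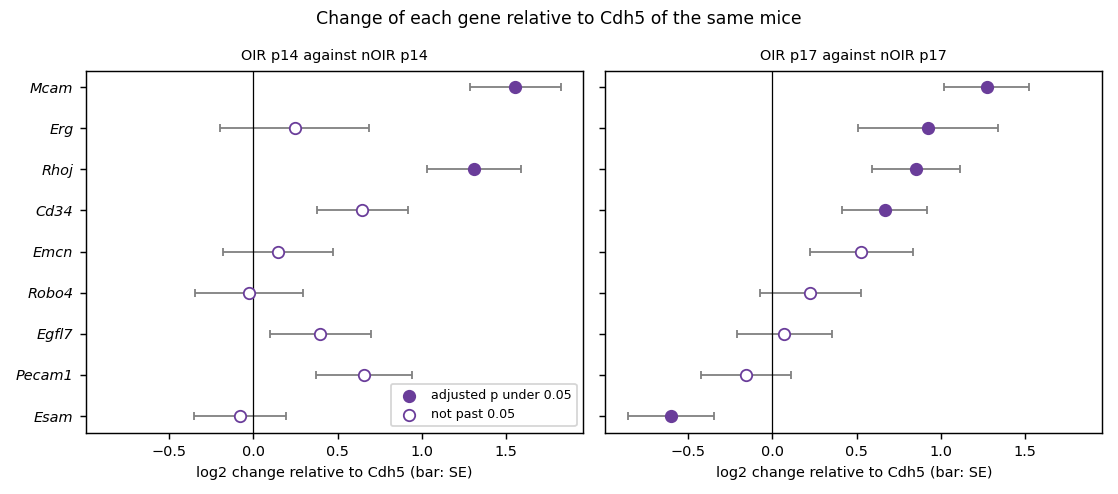
Log2 change of each gene relative to Cdh5 of the same mice, OIR against nOIR, at p14 (left) and p17 (right), with bars of 1 SE and filled symbols for an adjusted p under 0.05. Mcam (1.56 and 1.27) and Rhoj (1.31 and 0.85) lie right of 0 at both ages, and Esam lies left of 0 at p17 (-0.60).

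Some mice were high or low for most of the 10 genes, and others were not. OIR p14 mouse S4 was the highest of its group for 9 of the 10 genes and above the group mean for all 10, while S3 was the lowest for 4 and above the mean for 0. Among OIR p17 mice, S3 was highest for 4 genes and above the mean for 10, and S4 was lowest for 7. In nOIR p14 mice, S2 was lowest for 6 genes and highest for 1 (Pecam1). In nOIR p17 mice no mouse was highest or lowest for more than 4 genes, and S6 was highest for 3 and lowest for 3. The median deviation from the group mean was 0.36 on the log2 scale in OIR p14 mouse S4 and -0.29 in OIR p17 mouse S4. Neither mouse was among those with the most lens RNA, with 945 and 267 normalized reads of Cryaa. The part of tissue composition in these differences was not tested.

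Promoter sequences were available for 7 of the 10 genes, as 11 start sites in a RefSeq table of build GRCm38.p6. Those of Mcam and Rhoj, which rose at both ages, and of Emcn and Robo4, which passed at p17 alone, are printed as the 250 bases before the start site. Capitals mark AGGAAG or its reverse complement CTTCCT, the core letters of sites bound by ETS factors such as Erg and Fli1.
Mcam, chr9:44134408-44134657, plus strand: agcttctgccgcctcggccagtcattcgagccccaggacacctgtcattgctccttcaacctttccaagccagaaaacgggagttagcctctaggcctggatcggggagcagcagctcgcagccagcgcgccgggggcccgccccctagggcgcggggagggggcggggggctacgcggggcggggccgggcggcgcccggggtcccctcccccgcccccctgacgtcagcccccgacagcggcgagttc
Rhoj, chr12:75308063-75308312, plus strand: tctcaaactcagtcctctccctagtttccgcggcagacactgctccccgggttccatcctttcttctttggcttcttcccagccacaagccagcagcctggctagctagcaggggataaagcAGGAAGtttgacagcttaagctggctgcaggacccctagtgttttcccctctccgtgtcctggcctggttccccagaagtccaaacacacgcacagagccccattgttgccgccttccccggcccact
Emcn, chr3:137340828-137341077, plus strand: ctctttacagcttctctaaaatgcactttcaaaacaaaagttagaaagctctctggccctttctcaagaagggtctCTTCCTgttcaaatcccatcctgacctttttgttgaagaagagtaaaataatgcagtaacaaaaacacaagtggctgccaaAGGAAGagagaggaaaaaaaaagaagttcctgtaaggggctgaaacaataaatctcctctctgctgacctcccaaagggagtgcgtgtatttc
Robo4, chr9:37401722-37401971, plus strand: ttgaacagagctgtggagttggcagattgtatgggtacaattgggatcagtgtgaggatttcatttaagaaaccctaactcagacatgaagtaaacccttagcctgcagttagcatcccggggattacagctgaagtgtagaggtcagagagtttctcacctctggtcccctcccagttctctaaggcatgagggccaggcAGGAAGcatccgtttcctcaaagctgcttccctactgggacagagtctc

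The Mcam stretch holds 0 copies of these letters, Rhoj and Robo4 hold 1 each and Emcn holds 2. Of the 11 promoters, 7 held AGGAAG on either strand (Emcn, Cd34, Robo4, Rhoj, 1 of the 3 of Erg and 2 of the 3 of Egfl7). Among all 32851 promoters of the same length the share was 29.5%. AACAAT, letters found in sites of SOX factors, was in 3 of the 11 promoters (Emcn, Rhoj and 1 of Erg) beside 9.42% of all. ACGTG, 1 form of the core letters of the hypoxia response element, was in 0 of the 11 beside 16.6% of all. The other form, GCGTG, was not counted. It occurs in the printed Emcn stretch and, as its reverse complement CACGC, in that of Rhoj. These letters are short and a match describes the sequence only.

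Other genes of the endothelium were read from 3 lists of 44 genes in all, for surface and junction proteins, intracellular signalling and transcription factors. At p14, 4 of the 44 were higher and 3 were lower in OIR mice, with a median log2 fold change of -0.03. At p17, 28 were higher and 1 (S1pr1, -0.33) was lower, with a median of 1.16. The lower call was lost with edgeR, which called 0 lower in the list of surface and junction proteins that holds S1pr1. The other 15 did not pass. The tyrosine kinase receptors differed among each other. Tie1 rose at p17 by 1.62 ± 0.13 (adjusted p = 3.90e-10, limma), from a mean of 385 ± 33.3 (SD, n = 6) in nOIR to 1179 ± 63.0 (n = 8) normalized reads in OIR mice. Tek, the receptor of angiopoietins, differed by 0.29 ± 0.17 (adjusted p = 0.336) and Kdr, the main VEGF receptor, by 0.20 ± 0.14 (adjusted p = 0.422). Flt1, which binds VEGF and limits its signal, rose at p14 (0.39 ± 0.10, adjusted p = 0.0108) and at p17 (0.62 ± 0.09, 8.02e-06). Kdr and Flt1 are also made by neurons or other cells of the retina, and their part in these levels was not tested.

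The co-receptor Eng rose by 1.95 ± 0.16 at p17 (adjusted p = 1.56e-10, limma) after a value of 0.02 ± 0.17 at p14. Vwf, the clotting factor stored by endothelium, rose by 1.78 ± 0.25 at p17 (adjusted p = 3.08e-06) and was at -0.03 ± 0.26 at p14. Cldn5, the main claudin of the blood-retina barrier, had the opposite sign at the 2 ages. It was lower at p14, by -0.83 ± 0.15 (adjusted p = 0.000350), and higher at p17, by 0.89 ± 0.14 (adjusted p = 1.70e-05). Its means were 1187 ± 105 (SD, n = 6) normalized reads in nOIR p14 and 683 ± 180 (n = 6) in OIR p14 mice. Among transcription factors, Fli1, the closest relative of Erg, rose at p17 by 1.98 ± 0.19 (adjusted p = 5.11e-09) and Sox18 by 1.22 ± 0.13 (adjusted p = 6.08e-08). Sox17, a factor of arteries, differed by 0.22 ± 0.19 at p17 (adjusted p = 0.538) and by -0.54 ± 0.20 at p14 (adjusted p = 0.121).

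Lists of endothelial subtypes stood on both sides of the 10 genes. Of 14 tip cell genes, which leading cells of a sprout express, 10 were higher at p14 and 14 at p17, with medians of 1.10 and 2.79. Of 14 genes of barrier endothelium, such as transporters of the blood-brain and blood-retina barrier, 1 was higher and 5 were lower at p14, and 4 were higher and 4 were lower at p17. Their medians were -0.43 and -0.04. The summed level of these barrier genes was 37597 to 46514 normalized reads in nOIR p17 mice, beside 3432 to 3958.5 for the 10 genes. The part of other cells of the retina in it was not tested. These lists were chosen with earlier results of the same mice known, so they describe and do not add evidence.

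**Figure D4:**
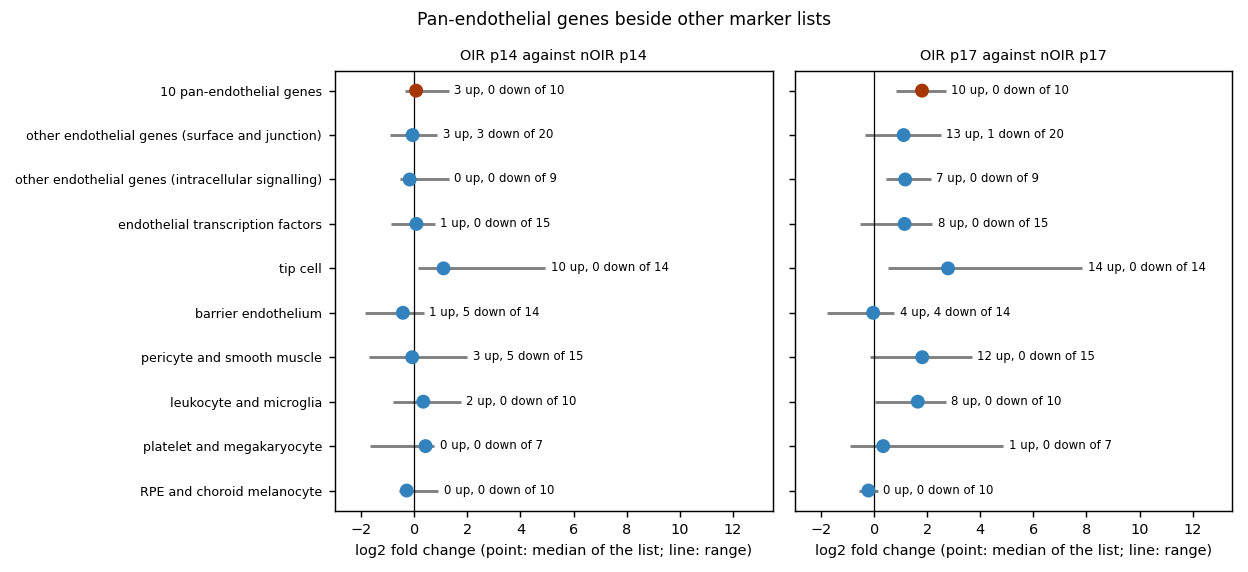
Median (point) and range (line) of log2 fold changes of OIR against nOIR mice at p14 (left) and p17 (right) for the 10 pan-endothelial genes and 9 other marker lists, with the number of tested genes called up and down. At p17 the median is 1.80 for the 10 genes, 2.79 for tip cell genes, -0.04 for barrier genes and -0.21 for pigment epithelium and choroid.

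Some of the 10 genes are also found in other cells, and markers of those cells were read as well. Mural cells carry Mcam. Of 15 pericyte and smooth muscle genes, 3 were higher and 5 lower at p14, and 12 were higher at p17, with a median of 1.81. Their summed level had a median of 24672 normalized reads in nOIR p14 (21510.3 to 27353) and of 18328.5 in OIR p14 mice (14944 to 21526), while Mcam was higher in OIR p14 mice. Within that list Acta2, the actin of smooth muscle, rose at p14 (2.00 ± 0.23, adjusted p = 7.93e-07, limma) and Rgs5, a pericyte gene, was lower (-1.10 ± 0.15, 1.75e-05). Leukocytes and platelets carry Pecam1. Of 10 leukocyte and microglia genes, 2 were higher at p14 and 8 at p17, and their sum was 1834 to 2120.5 in nOIR p17 and 3077 to 5229 in OIR p17 mice. With log2 Ptprc as a covariate, the value at p17 was 1.29 for Pecam1 (adjusted p = 1.28e-06), 2.05 for Cd34 (2.03e-09) and 2.73 for Mcam (7.58e-12). Of 7 platelet genes tested, 1 (Pf4) was higher at p17. Platelet sums were 70.3 to 132 in nOIR p17 and 134 to 263 in OIR p17 mice, with Ppbp and Gp6 at 0 in OIR p14 and Gp6 at 0 in nOIR p17 mice. Haemoglobin and other erythroid genes were higher at p17 in 5 of 6, with sums of 195 to 1191 in nOIR and 1232 to 16979.6 in OIR mice. The part of mural cells and blood cells in the rise of Mcam, Pecam1 and Cd34 was not tested beyond these values. Of 12 proliferation genes, 10 were higher at p14 and 11 at p17.

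Over the 4 group means, the genes most like the median of the 10 were found by the root mean square difference of centred log2 means among 19004 genes that averaged 10 or more normalized reads. The nearest was Trim30a (0.089), followed by Atp2a1, Cavin1, Aif1, Lgals9, Adgrl4, Cd38, C1qtnf1, Pdlim2 and Igfbp7 (0.114). Since likeness to this profile fixes a higher mean at p17, no test is given for them. Adgrl4 is itself one of the endothelial surface genes listed above. Gene by gene, the closest to Mcam was the basement membrane gene Nid2 (difference 0.027), to Cd34 the collagen gene Col4a2 (0.045), to Emcn the ETS factor Fli1 (0.085), to Rhoj the receptor gene Tlr4 (0.021) and to Pecam1 the galectin gene Lgals1 (0.035). Cdh5 was closest to Serpinb8 (0.046), Esam to Haao (0.051), Erg to Dchs2 (0.082), Egfl7 to Ckm (0.033) and Robo4 to Xlr (0.045). With 4 points per gene such likeness is a description of the order and size of the group means.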

How the data were processed

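RNA of whole mouse retinas was sequenced by the authors as single reads from an unstranded library. Per the labels and the study's methods, the authors mapped reads with STAR 2.7.8a, counted them on genes of Gencode M28 with featureCounts 2.0.1 and divided the counts by a DESeq2 (1.34) size factor per mouse, and the deposited signal is this value, called normalized reads here. The deposited table also holds the authors' group means, log2 fold changes and adjusted p-values, which were not used. Dividing each value by the step of its mouse, which is the normalized value of 1 read, gave whole reads for 100% of the values (tolerance 0.01 reads). The sources used here describe no removal of PCR copies, so these are reads and not molecules.

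The 10 genes and all marker lists were chosen with earlier results of these data known. Limma 3.58.1 in R 4.3.3 was fitted with a trend to log2(normalized reads + 1) of 26 mice in 4 groups, over 27137 genes with a mean of at least 1, with Benjamini-Hochberg adjustment over all of them. S4 was left out as in the study's methods. The smallest chi-square per degree of freedom between mice of a group was 9.39, so no library was a copy of another. On simulated data of the p14 comparison over 27137 genes, limma recovered 79% of 100 genes changed by 1 and 100% of 100 genes changed by 2 on the log2 scale, with 13 false calls, and made 0 calls without a change. Exact permutation tests (two-sided, on log2 means) used scipy 1.17.1. Named genes are the 10, the genes of 3 endothelial lists given by role, and the genes nearest in profile. Marker lists are given by counts, medians and sums, and single genes named from them beyond this were chosen after their values were seen. Exon lengths came from Gencode M21, and promoters from RefSeq on GRCm38.p6, which is not the authors' build, so no coordinates of the authors' files are given. Alternatives were a pseudocount of 0.1, other filters, S4 included, only the compared groups, a replicate block, equal totals, quantile normalization, edgeR 4.0.16 and DESeq2 1.42.0 on recovered counts, log2 Cryaa or Ptprc as a covariate, an adjusted p under 0.01, Pecam1 as the reference and leaving out each mouse. Leaving out the 4 mice above 5000 normalized reads of the lens gene Cryaa was added after the data were seen.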

Additional observations from a re-analysis of the deposited data

Results flagged for a closer look

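The OIR effect differed between p14 and p17 for all 10 genes by a contrast in the limma fit. The differences on the log2 scale were 0.87 for Pecam1, 1.68 for Cdh5, 2.06 for Emcn, 1.70 for Cd34, 1.40 for Mcam, 1.16 for Esam, 2.36 for Erg, 1.35 for Egfl7, 1.93 for Robo4 and 1.22 for Rhoj. With log2 Ptprc as a covariate, Cdh5 did not pass (1.50, adjusted p = 0.0656), and the other 9 passed.

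One mouse stood apart from its group. Pecam1 had 622 normalized reads in nOIR p14 mouse S2, and the gap to the next mouse was 0.687 of the range of the group, above Dixon's limit for 6 samples. This was 1 of 40 sets of gene and group looked at, and chance gives about 1 in 20. The same mouse was the lowest of its group for 6 of the other genes.

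Mouse S4 of nOIR p14, which entered the comparisons only as an alternative (S4 included), was above the 6 other nOIR p14 mice for 3 genes. It had 675 normalized reads of Pecam1, 1023 of Cd34 and 568 of Mcam. For Cdh5 this mouse lay below the 6 others, with 83.3 normalized reads against 113 in S1, the lowest of them.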

How the results depend on the processing

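The count of pan-endothelial genes higher at p17 in OIR than in nOIR mice stayed at 10 under all 40 alternatives, as did the count higher in OIR p17 than in OIR p14 mice. At p14 the count ranged from 2 to 4, and Mcam and Rhoj passed under all of them. The contrast between ages called 9 or 10 under 39 alternatives. No scaling moved the median of all genes by over 0.1. Replicate numbers do not pair the mice, since 7 of 34 same-numbered pairs had a correlation of deviations over 0.1 (median 0.014, other pairs -0.003). The cause of the changes below was not tested. With the replicate block, 2 instead of 4 genes were higher relative to Cdh5 at p17, Esam (0.0053) and Robo4 (0.066) turned sign relative to Cdh5 at p14, Erg was 0.071 at p14, and 27 of all genes were lower between control ages and 255 had a larger effect at p17.

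The sign turned only for values that passed neither in the reported fit nor under the alternative. Erg at p14 was 0.033 with equal totals. With each mouse left out in turn, Erg ranged from -0.14 to 0.11 and Emcn from -0.18 to 0.073 at p14, and between control ages Emcn ranged from -0.13 to 0.068 and Robo4 from -0.22 to 0.0012. Relative to Cdh5, Emcn ranged from -0.081 to 0.33, Esam from -0.22 to 0.12 and Robo4 from -0.21 to 0.092 at p14, and Egfl7 from -0.083 to 0.23 at p17. Relative to Pecam1 at p14, Emcn was -0.51, Cd34 -0.011, Erg -0.41 and Egfl7 -0.26, and 2 genes were lower. Without OIR p14 mouse S4, 4 were higher relative to Cdh5 at p14, and the count lower at p17 ranged from 0 to 1 (Esam, lost without nOIR p17 mouse S2, S3 or S5 or OIR p17 mouse S1 or S2).

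Counts over all genes moved more. The reported fit called 43 lower between control ages, 1114 higher between OIR ages and 389 for the contrast between ages. At an adjusted p under 0.01 they were 469 higher and 379 lower at p14, 732 lower at p17, 10 lower between control ages, 671 higher between OIR ages and 209 for the contrast between ages. With Ptprc as a covariate they were 901 lower at p17, 14 lower between control ages and 252 for the contrast. Between control ages 90 were lower with only these groups, 79 with equal totals, 127 by DESeq2 and 12 to 67 without single mice. DESeq2 called 597 for the contrast. Without the 4 mice with the most lens RNA, the counts were 24 between control ages, 645 between OIR ages and 220 for the contrast. Depth limits Erg most, with 5 to 16 reads in nOIR p17 mice.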

Other observations

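Further gene groups were read beside the 10 genes. Of 8 fibroblast genes, 2 were higher at p14 and 3 at p17 in OIR mice (adjusted p under 0.05, limma), with medians of 0.48 and 1.30 on the log2 scale. The other fibroblast genes did not pass. Among all genes, 3.18% were higher at p14 and 7.39% at p17. Of 6 genes used as markers of lymphatic endothelium, 3 were higher and 3 were lower at p17. Their summed level was 10873 to 13719.5 normalized reads in nOIR p17 and 6868 to 11821.5 in OIR p17 mice. In nOIR p17 mice this lay above the sum of the 10 pan-endothelial genes (3432 to 3958.5). Which cells of the retina gave these reads was not tested. Of 3 genes of fenestrated or choroidal endothelium, Plvap, a protein of the fenestral diaphragm, was higher at p14 (1.37) and p17 (2.03), and Esm1, which is also a tip cell gene, was higher by 4.94 and 7.85. Car4 was lower at p14 by limma (-1.34, adjusted p = 0.0461) and DESeq2 but not by edgeR, and did not pass at p17 (-0.42, adjusted p = 0.585).

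Of 7 astrocyte and gliosis genes, 3 were higher and 1 was lower at p14, and 4 were higher and 1 was lower at p17. Their summed level was 17836 to 21147 normalized reads in nOIR p14 and 23950.2 to 32197.5 in OIR p14 mice. Of the 15 retinal markers, 5 were lower at p14 and 6 at p17 in OIR mice, and 0 were higher.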
